A study of Mus musculus with 3 samples.

Results

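Immunity-related GTPases (IRGs) are large GTP-binding proteins that interferon switches on in mouse cells. Effector IRGs coat the membrane of vacuoles that hold parasites such as Toxoplasma gondii or bacteria such as Chlamydia, and help to break that membrane. The 3 Irgm proteins are regulators that sit on the cell's own membranes, keep the effectors in their inactive state and so steer them away from host organelles. Effector loading also needs the conjugation machinery of ATG8 proteins, and guanylate-binding proteins (GBPs), a related GTPase family, join IRGs at the vacuole. The 10 genes described here were chosen by symbol. The regulators are Irgm1, Irgm2 and Igtp (Irgm3). The effectors and their relatives are Iigp1 (Irga6), Tgtp1 and Tgtp2 (both Irgb6), Ifi47 (Irgd), Gm12250 (Irgb10), Gm4951 and F830016B08Rik. Of these, 9 had counts among the 32285 genes of the matrices. Gm12250 had no entry under that symbol there, so its level could not be measured. No role is given for Gm4951 and F830016B08Rik beyond their place beside Iigp1, and "other 6 members" means the measured genes that are not Irgm regulators.

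The 3 sc-RNAseq libraries came from organoids grown from the colon of C57bl/6 mice in full medium. The first was untreated, and the other two had received mouse IFN-γ for 24 h and for 48 h, at the 50 ng/ml given in the organoid methods. DAPI-positive dead cells were sorted out by FACS before capture, and RNA was counted as unique molecular identifiers (UMIs) near the 3' end of transcripts. Each condition was a single library, so no test across samples was possible and every interval below is a 95% interval for counting error only. Organoids hold epithelium alone, and Epcam, an epithelial adhesion molecule, had a UMI in 99.9% to 100% of cells.

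Barcodes counted as cells if they had 5000 UMIs or more, 400 genes or more and no more than 15% mitochondrial UMIs. This left 1058 cells in the untreated library, 917 in the 24 h library and 2934 in the 48 h library. They held 49801935, 71077817 and 47243500 UMIs, with median depths of 33550, 68784 and 10772 per cell. The leukocyte gene Ptprc had no UMI in any library. Summed over 12 immune markers, of which 5 to 7 were at 0, the level ran from 3.01 to 4 CPM (UMIs scaled to the same library total). Summed over 11 stromal markers, of which 6 or 7 were at 0, the level was 3.35 CPM without treatment, then 11.8 CPM after 24 h and 18.8 CPM after 48 h. Of these sums 0.843, 10.9 and 17.1 CPM came from Acta2, a smooth muscle actin gene. The part of such cells in the IRG levels was not tested. Of the cells kept, 2 to 5 per library carried a barcode also kept in another library.

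Known promoter elements of genes that IFN-γ switches on are the GAS element TTCNNNGAA and the ISRE core GAAANNGAAA, which interferon regulatory factors bind. Promoter windows from RefSeq (GRCm38.p6) were at hand for 7 of the 10 genes, all on chromosome 11, and the 250 bases before each start were searched for both letter patterns, the ISRE on both strands. In Igtp, Irgm2, Tgtp1 and Tgtp2 a GAS pattern was followed by an ISRE pattern on the gene's strand, with starts 11 bases apart. The stretches are shown because this arrangement was shared by regulators and effectors, with the GAS and ISRE letters in capitals.
Igtp: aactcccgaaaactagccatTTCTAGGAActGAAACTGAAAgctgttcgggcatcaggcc
Irgm2: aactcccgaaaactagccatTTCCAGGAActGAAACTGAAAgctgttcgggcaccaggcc
Tgtp1: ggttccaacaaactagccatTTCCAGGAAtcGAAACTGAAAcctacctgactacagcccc
Tgtp2: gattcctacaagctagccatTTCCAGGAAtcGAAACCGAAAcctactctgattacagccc
Irgm1: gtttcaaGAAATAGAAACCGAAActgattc

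The Igtp stretch is chr11:58199491-58199550 (plus strand) and the Irgm2 stretch is chr11:58214882-58214941 (plus strand). The Tgtp1 stretch is chr11:48992295-48992354 and the Tgtp2 stretch chr11:49064254-49064313, both read on the minus strand. The GAS pattern began 45 bases before the RefSeq start in Igtp, 75 in Irgm2, 88 in Tgtp1 and 81 in Tgtp2. The annotated spans of Irgm2 and Tgtp1 given below begin further upstream, so these 2 stretches lie inside the span of their gene. Laid side by side without gaps, Igtp and Irgm2 had the same letter at 58 of 60 positions and Tgtp1 and Tgtp2 at 46 of 60. Irgm1 (chr11:48871428-48871457, minus strand) held no GAS pattern but 2 overlapping ISRE patterns, which began 30 and 24 bases before its start and lie within the first exon of a longer annotated transcript. The window of Ifi47 held neither, and that of Gm12250 held a GAS pattern and 2 ISRE patterns on the opposite strand.

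Over all 32851 RefSeq windows of this length, 7.02% held a GAS pattern, 2.98% an ISRE pattern and 0.332% both. The pair with starts 11 bases apart, in either orientation, was in 5 windows (0.0152%), those of Igtp, Irgm2, Tgtp1, Tgtp2 and Gm12185, which is an IRG relative next to Tgtp1. These genes are copies of 1 family, so their windows are not independent, and a match of letters is not a measurement of binding. The spacing of 11 bases was the one seen in Igtp, Irgm2, Tgtp1 and Tgtp2, so their windows were bound to be counted. Rates for other spacings are not given here. The 0.0152% therefore cannot serve as a test of whether the pair is enriched in these genes.

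The measured genes lie in 3 groups in the genome (GENCODE vM21 annotation, GRCm38). Irgm1 (chr11:48861968-48871683, minus strand), Tgtp1 (chr11:48985327-48994172, minus), Tgtp2 (chr11:49057194-49064206, minus) and Ifi47 (chr11:49076587-49096974, plus) are neighbours. Igtp (chr11:58199556-58207591, plus) and Irgm2 (chr11:58199618-58222782, plus) form the other group on chromosome 11, and their annotated spans overlap on the same strand through a first exon. Gm4951 (chr18:60212080-60247820), F830016B08Rik (chr18:60293380-60303016) and Iigp1 (chr18:60376027-60392634) lie on the plus strand of chromosome 18.

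Before IFN-γ, the organoids held IRG transcripts almost only of the regulator Irgm1, which sits on Golgi, mitochondrial and lysosomal membranes. It had 349 UMIs, or 7.01 CPM (6.29 to 7.78), spread over 244 of 1058 cells. The other regulators followed with 23 UMIs for Irgm2 and 16 for Igtp, both below 0.5 CPM. Of the other members, Ifi47 had 3 UMIs, Tgtp2 had 2 and Iigp1 had 1, and Tgtp1, Gm4951 and F830016B08Rik had none, which allows up to 0.0602 CPM by a floor of 3 counts.

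At 24 h the same genes summed to 2099 CPM (2088 to 2110) and at 48 h to 2122 CPM (2109 to 2135), from 7.91 CPM (7.15 to 8.73) in the untreated library. The summed level was thus 265-fold higher at 24 h and 268-fold higher at 48 h, or 8.05 (7.91 to 8.20) and 8.07 (7.92 to 8.21) on the log2 scale. Without Irgm1, the other 8 members together went from 0.904 CPM to 1973 and 2021 CPM. The median log2 ratio of all genes with enough counts was -0.46 at 24 h and -0.18 at 48 h, so the members moved against a slight shift the other way. Scaling with TMM factors, which lessens that shift, gave 8.50 at 24 h and 8.25 at 48 h.

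**Figure D1:**
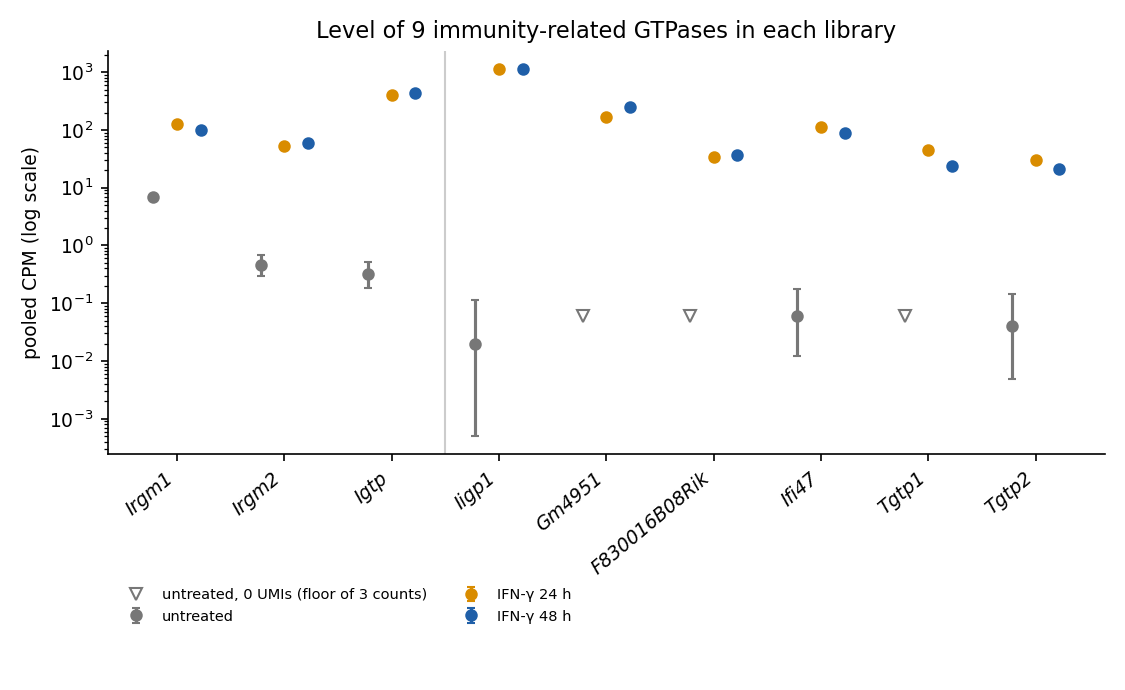
Pooled CPM of each measured member (log scale) in the untreated, IFN-γ 24 h and IFN-γ 48 h libraries, with 95% Poisson intervals for counting error. Open triangles mark the floor of 3 counts, 0.0602 CPM, for genes with no untreated UMI, and the vertical line parts the 3 Irgm regulators from the other 6 members. Each treated level lies above the untreated level of its gene, and Irgm1 starts highest.

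Among the effectors, Iigp1, a well studied vacuole-coating IRG, had 1, 79816 and 52741 UMIs in the untreated, 24 h and 48 h libraries. These are 0.0201, 1123 and 1116 CPM, and Iigp1 ranked 139 and 122 by pooled level among all genes at the 2 times. Its log2 ratio was 15.77 (13.29 to 21.07) at 24 h and 15.76 (13.28 to 21.07) at 48 h, with an interval made wide by the single untreated UMI. No other gene tested had a higher computed ratio at either time. Genes with no untreated UMI entered that ranking as lower bounds against a floor of 3 counts, so this rank is not certain. Gm4951 had 0, 12144 and 11581 UMIs, or 171 CPM at 24 h and 245 CPM at 48 h. Against the floor this is at least 2836-fold higher at 24 h and at least 4069-fold higher at 48 h. F830016B08Rik had 0, 2421 and 1728 UMIs, or 34.1 and 36.6 CPM, at least 565-fold and at least 607-fold higher. Thus the 3 neighbours on chromosome 18 went from 1 UMI between them to 94381 and 66050.

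Ifi47 had 3, 8147 and 4162 UMIs, or 0.0602, 115 and 88.1 CPM. The log2 ratio was 10.89 (9.35 to 13.17) at 24 h and 10.51 (8.97 to 12.79) at 48 h. Tgtp1 had 0, 3168 and 1107 UMIs, or 44.6 CPM at 24 h and 23.4 CPM at 48 h, at least 740-fold and at least 389-fold higher. Tgtp2 had 2, 2149 and 991 UMIs, or 0.0402, 30.2 and 21 CPM, with log2 ratios of 9.56 (7.70 to 12.60) and 9.03 (7.17 to 12.08). The split between the Tgtp genes is uncertain, because every stretch of 90 bases in the last 500 bases of Tgtp1-201 also occurs in Tgtp2 and the reverse holds too (411 of 411 in each). Reads from there cannot be assigned to 1 of the 2 genes and are left uncounted, so the level of each gene and their sum can be too low. Igtp, Irgm1, Irgm2, Iigp1, Ifi47 and Gm4951 shared no such stretch with another gene, and F830016B08Rik shared 14 of 411.

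Of the regulators, Igtp went from 16 UMIs to 28638 and 20342. This is 0.321, 403 and 431 CPM, with log2 ratios of 10.29 (9.59 to 11.10) and 10.39 (9.69 to 11.20), so its ratio was of the size seen for Ifi47. Irgm2, which acts at the Golgi, had 23, 3754 and 2839 UMIs, or 0.462, 52.8 and 60.1 CPM, with log2 ratios of 6.84 (6.25 to 7.5) and 7.02 (6.44 to 7.68). Irgm1 had 349, 8960 and 4762 UMIs, or 7.01, 126 and 101 CPM. Its log2 ratio of 4.17 (4.01 to 4.33) at 24 h and 3.85 (3.69 to 4.01) at 48 h was the lowest of the 9, on the highest untreated level.

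All 9 measured members were at least 16-fold higher at 24 h, against 0.551% of the 17412 genes with enough counts. At 48 h 8 of 9 were, against 0.731% of 17376 genes, and Irgm1 was 14.4-fold higher, with a log2 ratio of 4.03 under TMM that lies just past the mark. The 2-fold mark was passed upward by 9 of 9 at both times, against 3.46% and 5.26% of genes, and downward by none, against 26% and 16.6%. The lowest member, Irgm1, ranked 91 of 17412 genes at 24 h and 138 of 17376 at 48 h by log2 ratio. Genes without untreated UMIs entered this ranking at their bound. The ratios at both times share the untreated library, so the times are not independent of each other in this respect. In cells of 10000 to 40000 UMIs, a range that put the median depth at 17262 to 19509 in the 3 libraries, the counts were the same, 9 of 9 at 24 h and 8 of 9 at 48 h.

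Barcodes under 2000 UMIs, which hold background RNA and damaged cells, also carried the members. Their summed level was 6.91 CPM without treatment, and 1474 and 1267 CPM after 24 h and 48 h. Free RNA and RNA of damaged cells cannot be told apart in these barcodes, and the part of free RNA in the UMIs of single cells was not tested.

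From 24 h to 48 h the summed level hardly moved, with a log2 ratio of 0.02 (0.00 to 0.03), and the sign of this ratio depended on the scaling. In pooled CPM none of the 9 members passed 2-fold in either direction, against 11.6% of 16814 genes that were at least 2-fold higher and 2.31% that were at least 2-fold lower. The median ratio of all genes was 0.26, so a member at 0 lay below the middle of the genes.

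Tgtp1 stood lowest with -0.93 (-1.03 to -0.83), or 44.6 CPM against 23.4 CPM, and reached -1.19 under TMM and -1.17 as a mean over cells, which are past 2-fold. Tgtp2 followed with -0.53 (-0.64 to -0.42), Ifi47 with -0.38 (-0.43 to -0.33) and Irgm1 with -0.32 (-0.37 to -0.27). Tgtp1, Tgtp2 and Irgm1 were lower at 48 h under each of the 4 scalings compared, and so was Iigp1, whose pooled ratio of -0.01 (-0.02 to 0.01) spans no difference. Ifi47 turned to 0.34 in cells of 10000 to 40000 UMIs. At the upper end, Gm4951 had 0.52 (0.48 to 0.56), but it turned to -0.14 in the cells of that depth range. Irgm2 (0.19), Igtp (0.10) and F830016B08Rik (0.10) lay near 0 in pooled CPM, and under TMM these were negative. In the depth range F830016B08Rik lay past 2-fold lower at -1.34, with 81.9 CPM at 24 h and 32.4 CPM at 48 h, and Irgm2 stood at -0.66. Tgtp1 and Tgtp2 added up gave -0.75 (-0.83 to -0.68) in pooled CPM. This sum does not depend on the split of counted reads, but it leaves out reads that map to both genes. Thus no member was higher at 48 h under all 4 scalings, taken over cells of all clusters. The mix of clusters, described below, differed between the times, with 179 of 917 cells in cluster 0 at 24 h and 1346 of 2934 at 48 h. Within clusters, Gm4951 was higher at 48 h in each except cluster 0 (291 and 286 CPM). Iigp1 was higher at 48 h in colonocyte-like cells (899 and 1039 CPM) and cluster 3 (1074 and 1200 CPM), and lower in the other clusters. The part of the mix was not tested.

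**Figure D2:**
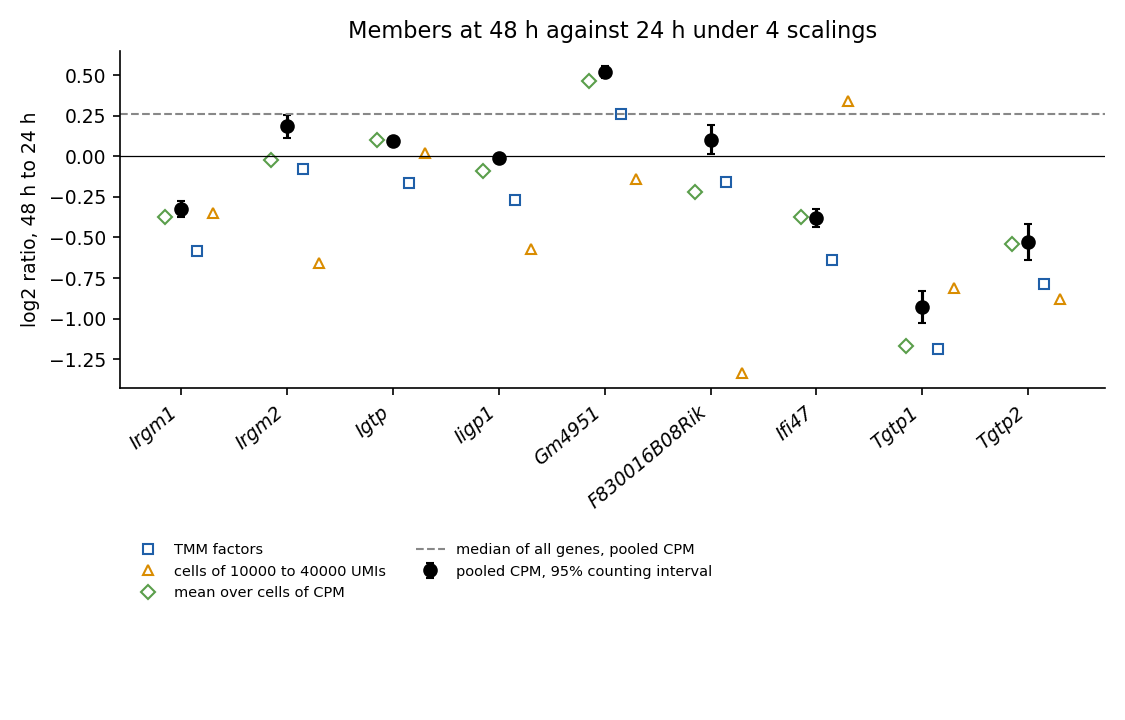
Log2 ratio of each member at 48 h to 24 h from pooled CPM (black, 95% counting interval), with TMM factors, in cells of 10000 to 40000 UMIs, and as a mean over cells of CPM. The dashed line is the median of all genes in pooled CPM, 0.26, and Tgtp1, Tgtp2, Irgm1 and Iigp1 have every symbol below 0.

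The balance of regulators to the other members differed between the untreated and the treated libraries. UMIs of Irgm1, Irgm2 and Igtp made up 98.5% (96.7% to 99.4%) of the untreated member UMIs, 388 of 394. The share was 27.7% (27.5% to 27.9%) at 24 h and 27.9% (27.6% to 28.2%) at 48 h. In CPM the regulators went from 7.79 to 582 and 591, while the other 6 members went from 0.120 to 1517 and 1531. These are counts of transcript ends, which do not scale with transcript length, although capture can differ between genes.

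Within the treated share, Igtp carried 19.2% of all member UMIs at 24 h and 20.3% at 48 h, Irgm1 6.01% and 4.75%, and Irgm2 2.52% and 2.83%. Iigp1 alone held 53.5% and 52.6%, Gm4951 8.14% and 11.6%, and Tgtp1 and Tgtp2 together 3.56% and 2.09%. The Tgtp shares leave out reads that map to both genes. The regulator UMIs were thus led by Igtp after treatment, and by Irgm1 before it. The balance moved with the depth of the cell. In the third of cells with fewest UMIs it was 23.2% at 24 h and 24.8% at 48 h, and in the third with most UMIs 28.9% and 29.2%. At matched depth (10000 to 40000 UMIs) it was 23.6% at 24 h and 28.5% at 48 h, so the near equality of the times held for pooled cells and not in that range. That range matched depth and not cell state. Cluster 0, described below, gave 135 of its 222 cells at 24 h and 272 of 1381 at 48 h. The regulator share of cluster 0 there was 23.0% and 25.2%. The part of this mix was not tested.

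At the level of single cells, each cell was thinned at random to 5000 UMIs to set the libraries at equal depth. Then 1021 of 1058 untreated cells had no UMI of any member, against 1 of 917 at 24 h and 3 of 2934 at 48 h. The median treated cell showed 4 of the 9 members and 10 member UMIs at both times. From the 10th to the 90th percentile the cells had 5 to 20 UMIs at 24 h and 5 to 18 at 48 h. At least 5 members were seen in 31.8% (28.8% to 35%) of cells at 24 h, in 28.3% (26.66% to 29.96%) at 48 h and in 0 of 1058 untreated cells, which allows up to 0.348%. Without thinning these shares were 90.3% and 68.2%, following the depth of the libraries.

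By member, Iigp1 was found in 96.6% of thinned cells at 24 h and 97.8% at 48 h, and Igtp in 81.0% and 85.2%. Gm4951 was found in 50.7% and 65.7%, Irgm1 in 45.1% and 36.2%, Ifi47 in 35.8% and 31.4%, and Irgm2 in 28.5% and 27.1%. The lowest shares were those of Tgtp1 (20.4% and 9.44%), F830016B08Rik (17.1% and 17.8%) and Tgtp2 (14.4% and 10.6%), where reads shared by the Tgtp genes are not counted. In untreated cells the highest share was 2.93%, that of Irgm1. No cell type of these organoids is known to lack the members under IFN-γ, so no share in such cells can be set beside the treated shares. The barcodes under 2000 UMIs of the 24 h library held Tgtp1 at 42.8 CPM, against 44.6 CPM in its cells, and Irgm1 at 116 CPM against 126 CPM. At 48 h they held Ifi47 at 88.8 CPM against 88.1 CPM in cells. The cells stood further above these barcodes for Gm4951, by 2.20-fold at 24 h and 2.93-fold at 48 h. The treated shares therefore count cells with a UMI and cannot be read as shares of cells that express a member.

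**Figure D3:**
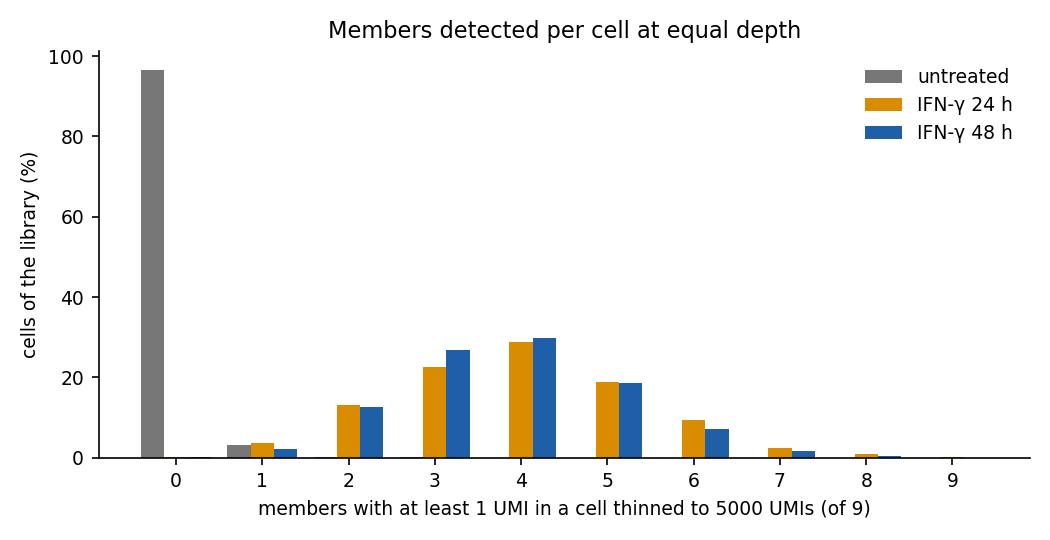
Share of cells (%) by the number of the 9 members with at least 1 UMI after each cell was thinned to 5000 UMIs, in the 3 libraries. Most untreated cells (96.5%) show no member, and both treated libraries peak at 4 members.

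Iigp1 counts were broader than counting error alone would give, with a variance of 4.04 times the mean at 24 h and 2.67 times at 48 h, around a median of 5 UMIs per thinned cell. F830016B08Rik had a ratio of 2.99 and 1.77 at a mean of only 0.293 and 0.236 UMIs. Irgm2 lay near 1 (1.08 at both times). The Spearman correlation of each member with the sum of the other 8 ran from 0.04 (Tgtp1) to 0.25 (Gm4951) over the 917 cells at 24 h, and from 0.05 (Ifi47) to 0.21 (Gm4951) over the 2934 cells at 48 h. The points share a library and counts are sparse, so these values are descriptions of the cells and no more.

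Of 4102 genes with enough UMIs, the 10 whose counts per cell were most like the summed members were Malat1, Gmds, Ccser1, Ptprd, Cd274, Lpp, Ptprk, Cxcl10, Muc13 and Mecom, by the lower of the correlations at the 2 times (0.18 to 0.24). The median over all candidates was 0.02 at 24 h and 0.00 at 48 h. Cd274, the checkpoint ligand PD-L1, and Cxcl10, a T cell chemokine, were themselves higher with IFN-γ, with log2 ratios of 5.65 and 6.38 for Cd274 and of 8.34 and 7.99 for Cxcl10. Malat1, a nuclear RNA, was lower, with 9301, 3035 and 4909 CPM in the 3 libraries. Gmds, Ccser1 and Ptprd, genes with long introns, stood at 842, 313 and 518 CPM before treatment, so the list holds abundant genes as well as induced ones. Of the list, only Cd274 and Cxcl10 were higher at 24 h than without treatment in pooled CPM. The summed members were also lower in deeper cells, with 2751 CPM in the third with fewest UMIs and 1949 CPM in the third with most at 24 h. The part of depth in these correlations was not tested.

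The 45 untreated UMIs of members other than Irgm1 were not spread evenly. They lay in 27 cells, and 5 cells with at least 3 such UMIs held 22 of them. The leading cell, of the colonocyte-like cluster described next, had 8 Irgm1, 3 Irgm2, 1 Igtp, 2 Tgtp2 and 2 Ifi47 UMIs among 25789, beside 185 UMIs of Isg15, 118 of Ifit1 and 72 of Ifit3, which are genes typical of type I interferon. In all, 8 untreated cells had at least 10 UMIs summed over Isg15, Ifit1 and Ifit3, and 4 of these were among the 5 cells. The remaining cell of the 5 had none of the 3 transcripts. Those 5 cells held 69.7% of all untreated Isg15 UMIs and 91.7% of Ifit1 UMIs, but only 5.44% of Irgm1 UMIs and none of 19 Cd74 UMIs. Irgm1 in the untreated library was thus mostly in other cells, and 181 untreated cells in all had a single UMI of it.

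To describe the members by cell state, cells of the 3 libraries were integrated and clustered without the IRGs, and clusters were named only from markers. There were 2 proliferating-like clusters (1, led by Nusap1 and Ube2c, and 2, led by Ung and Ccne2), a goblet-like (Spink4, Muc2), a colonocyte-like (Krt20, Slc26a3, Car1) and an enteroendocrine-like cluster (Chgb, Chga). Cluster 0 held 10 of 14 stem markers but stayed unnamed, because none was among its leading genes and its median depth at 24 h was 15015 against 68784 in its library. Cluster 3 (Stox2, Edn1) and cluster 7 (Gm26917) also stayed unnamed.

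Each cluster of the treated libraries held the members at a summed level of at least 1753 CPM, against at most 9.92 CPM in any untreated cluster. In the 6 clusters with at least 50 cells, the sum ran from 1839 CPM (cluster 1, proliferating-like) to 2851 CPM (cluster 0) at 24 h, a range of 1.55-fold. At 48 h it ran from 1807 CPM (cluster 1) to 2590 CPM (colonocyte-like), a range of 1.43-fold. Goblet-like cells had 2807 and 2528 CPM in 81 and 239 cells. Colonocyte-like cells had 2086 CPM in 71 cells at 24 h and 2590 CPM in 177 cells at 48 h, so they lay at the level of all other cells at 24 h (log2 ratio -0.01, -0.03 to 0.01) and above it at 48 h (0.32, 0.29 to 0.35). Proliferating-like cells were lower than the other cells at both times, by log2 ratios of -0.34 and -0.39. They were also the deepest cells, with medians of 91356 UMIs against 21769 at 24 h and 24217 against 7982 at 48 h, and the part of depth was not tested. Within 10000 to 40000 UMIs at 48 h, cluster 1 had 1787 CPM, cluster 2 1887 CPM, goblet-like cells 2514 CPM and colonocyte-like cells 2532 CPM. At 24 h in that range goblet-like cells stood highest of the 6 clusters, with 3597 CPM in 17 cells. Cluster 0 had 2831 CPM in 135 cells, and cluster 1 was lowest with 1631 CPM in 15 cells. The sum was also lower in deeper cells of a library. It went from 2751 CPM in the third with fewest UMIs to 1949 CPM in the third with most at 24 h, and from 2362 to 1990 CPM at 48 h.

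Colonocyte-like cells had the most regulator-rich balance. Irgm1, Irgm2 and Igtp made up 34.5% (33.8% to 35.2%) of their member UMIs at 24 h and 34.2% (33.3% to 35.2%) at 48 h, against 26.9% and 27.2% in all other cells. Igtp stood at 541 CPM and 677 CPM in them, the highest of the 6 larger clusters at both times, while Iigp1 at 24 h was the lowest there, with 899 CPM against 1729 CPM in cluster 0. Among the 6 larger clusters, Ifi47 was also highest in colonocyte-like cells, with 148 CPM at 24 h and 166 CPM at 48 h. Cluster 3 was close at 24 h with 146 CPM, and cluster 0 was lowest of the 6 with 61.2 and 54.5 CPM. Goblet-like cells leaned the other way, with a regulator share of 22.5% and 23.6%. Their Tgtp1 (72.4 CPM), Tgtp2 (52.3 CPM) and F830016B08Rik (104 CPM) at 24 h were the highest of the larger clusters. At 48 h the colonocyte-like cells had the highest Tgtp levels of the larger clusters in pooled CPM. Tgtp1 had 40.9 CPM there against 37.9 CPM in cluster 3 and 36.3 CPM in goblet-like cells. Tgtp2 had 38.0 CPM against 33.6 and 33.2 CPM. The counting intervals of colonocyte-like cells and cluster 3 overlapped. Within 10000 to 40000 UMIs at 48 h, cluster 3 led instead, with 44.0 CPM of Tgtp1 and 39.5 CPM of Tgtp2. Colonocyte-like cells had 40.9 and 35.7 CPM there, and goblet-like cells 43.3 and 31.3 CPM. Within 10000 to 40000 UMIs at 24 h, where 17 goblet-like and 9 colonocyte-like cells remained, Tgtp1 was lower in goblet-like cells (45.6 CPM) than in colonocyte-like cells (79.5 CPM), and so was F830016B08Rik (114 CPM against 274 CPM). The balance in the proliferating-like clusters lay between these, from 27.1% to 29.5%. Within 10000 to 40000 UMIs at 24 h, cluster 1 had a regulator share of 32.0% in 15 cells, close to the 33.6% of the 9 colonocyte-like cells. Cluster 2 had 25.6% there in 8 cells and goblet-like cells 19.5%. At 48 h in that range clusters 1 and 2 had 29.6% and 28.4%, colonocyte-like cells 33.9% and goblet-like cells 24.1%.

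**Figure D4:**
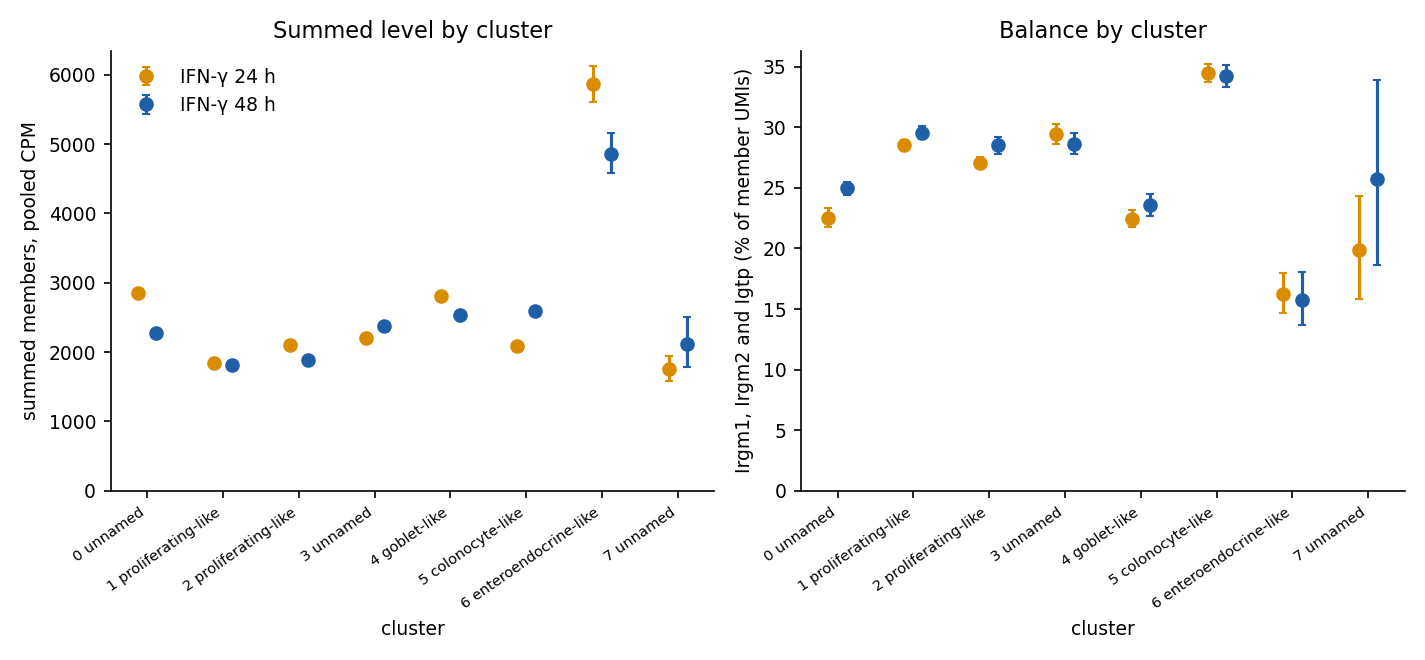
Left, summed level of the 9 members (pooled CPM) by cluster at 24 h and 48 h, with 95% Poisson intervals; right, share of Irgm1, Irgm2 and Igtp in the member UMIs (%), with exact binomial intervals. The enteroendocrine-like cluster (12 and 21 cells) has the highest sum and the lowest regulator share, and the colonocyte-like cluster the highest share.

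The few enteroendocrine-like cells, hormone-secreting cells of the epithelium, had the highest levels. In 12 cells at 24 h the members summed to 5862 CPM (5611 to 6120), and in 21 cells at 48 h to 4864 CPM (4582 to 5159), 2.82-fold and 2.31-fold the level of all other cells. The untreated library had 30 such cells with 2 member UMIs, 3.54 CPM (0.429 to 12.8). The regulator share was 16.3% (14.7% to 17.9%) and 15.8% (13.7% to 18%). Their median depth was lower than that of the other cells, 23512 UMIs against 69584 at 24 h and 8382 against 10789 at 48 h.

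The gene that stood apart in them was F830016B08Rik. It had 985 CPM against 29.3 CPM in the other cells at 24 h, a log2 ratio of 5.07 (4.90 to 5.23), and 512 CPM against 34.3 CPM at 48 h, a log2 ratio of 3.90 (3.62 to 4.17). It was found in 10 of 12 cells at 24 h and 19 of 21 at 48 h, and the leading cell held 31.2% and 16.2% of these UMIs. After thinning it was in 83.3% (51.6% to 97.9%) of them at 24 h and 76.2% (52.8% to 91.8%) at 48 h, against 16.2% and 16.7% of other cells. Tgtp1 and Tgtp2 added up were 3.35-fold and 3.80-fold higher in them than in the other cells. Counted apart, Tgtp2 was 6.28-fold and 5.77-fold higher and Tgtp1 1.41-fold and 2.07-fold, but their split is uncertain, and the Tgtp1 interval at 24 h (-0.18 to 1.09 on the log2 scale) spans no difference. The ratios of the other members included Iigp1 at 2.61-fold and 2.38-fold, Gm4951 at 2.67-fold and 2.43-fold and Igtp at 1.5-fold and 1.10-fold. The interval of the last Igtp value, -0.15 to 0.41 on the log2 scale, spans no difference. In the cells of 10000 to 40000 UMIs, 6 at 24 h and 7 at 48 h, F830016B08Rik had 382 and 590 CPM, and the sum 6485 and 5845 CPM. At 24 h 4 of these 6 cells held F830016B08Rik. The leading cell had 40.4% of its UMIs at 24 h and 33.9% at 48 h. The colonocyte-like cells of that range had 274 CPM of F830016B08Rik at 24 h, in 9 cells, 1 of which held 49.3% of the UMIs, and 53.7 CPM at 48 h in 141 cells. Goblet-like cells had 114 and 58.1 CPM there. At 24 h the gap between enteroendocrine-like and colonocyte-like cells was thus much smaller at matched depth than in pooled CPM, where the levels were 985 and 36.3 CPM. Its level was also lower in deeper cells of a library, from 83.3 CPM in the third with fewest UMIs to 21.4 CPM in the third with most at 24 h, and from 66.1 to 24.7 CPM at 48 h. Chga, the granin that defines these cells, had 6075 and 3923 CPM in them and 0.749 and 1.49 CPM in all other cells.

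**Figure D5:**
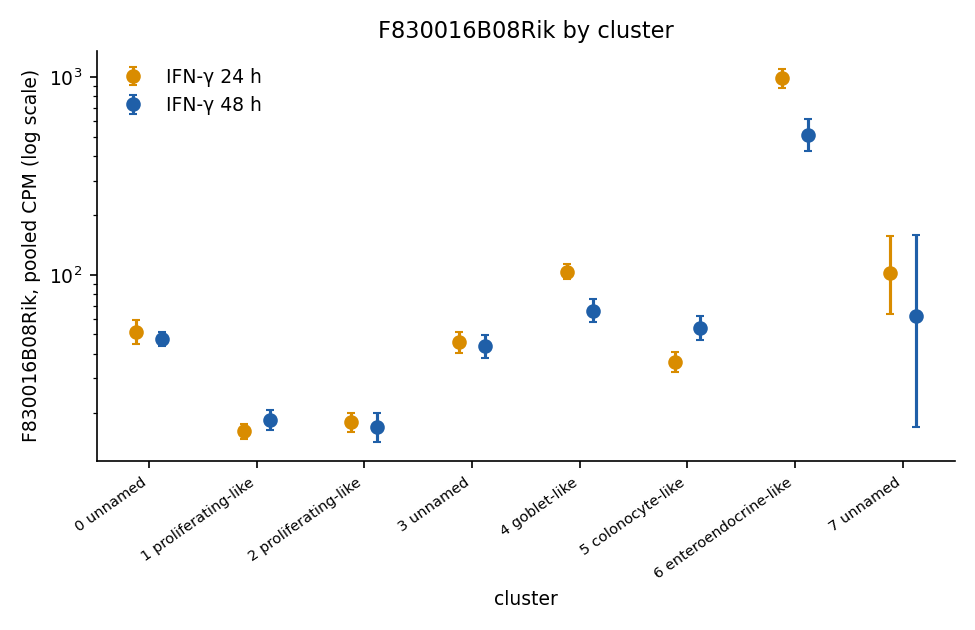
Pooled CPM of F830016B08Rik (log scale) by cluster at 24 h and 48 h, with 95% Poisson intervals for counting error. The enteroendocrine-like cluster lies at 985 and 512 CPM, and the clusters with at least 50 cells lie between 16.2 and 104 CPM.

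The other small cluster, 7, had 28 cells at 24 h and 9 at 48 h at a median of 6615 and 6596 UMIs. Tgtp1 reached 245 and 234 CPM there, above its level in every other cluster, and with Tgtp2 added 289 and 265 CPM, while Igtp at 24 h was at 103 CPM, below its level in every other cluster.

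Other genes of the pathway were described from lists set by function. Of 10 IRG relatives, 7 had counts and 6 enough for a ratio. Of these 6, 5 were at least 2-fold higher at both times, against 3.46% and 5.26% of all genes. Gm12185, whose promoter window may hold the same GAS and ISRE pair as that of Tgtp1, had 0.0803, 45.3 and 48.9 CPM. Its annotated span (chr11:48904656-48992226, minus strand) overlaps that of Tgtp1 on the same strand, so the split of reads there is uncertain. The Tgtp1 stretch shown above lies just upstream of that span. Gm4841, which lies between Gm4951 and F830016B08Rik, had 0.0402, 53.2 and 43.8 CPM. The exception was Irgq, an atypical relative linked to autophagy, with 12, 6.43 and 9.04 CPM. The testis relative Irgc1 had 3, 1 and 1 UMIs.

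All 9 GBPs with enough counts, of 11 listed, were at least 16-fold higher at both times, against the backgrounds of 0.551% and 0.731%. Gbp2, which joins IRGs at the Toxoplasma vacuole, had 0.0402, 571 and 639 CPM. The median log2 ratio of the GBPs was at least 8.18 and at least 8.48, beside at least 9.56 and at least 9.25 for the 9 IRGs. These are lower limits, because both sets hold genes with no untreated UMI that entered at their bound. From 24 h to 48 h the GBPs had a median of 0.35 and the IRGs of -0.01, beside 0.26 for all genes. Gbp8 had the highest of these ratios with 1.16, or 28.7 CPM against 64.0 CPM.

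None of the 15 ATG8 conjugation and ATG8 family genes passed 2-fold in any of the 3 comparisons. Their median log2 ratios were -0.17 at 24 h and -0.18 at 48 h. The ratios ran from -0.95 (Atg10) to 0.11 at 24 h and from -0.64 to 0.49 at 48 h. From 24 h to 48 h they ran from -0.58 to 0.94 (Atg7), so some stopped just short of the 2-fold mark. Of all genes, 3.46% and 5.26% were at least 2-fold higher at these times, and 26% and 16.6% at least 2-fold lower. From 24 h to 48 h, 11.6% of all genes were at least 2-fold higher and 2.31% at least 2-fold lower. Atg5, part of the conjugating enzyme, had 60.9, 63.6 and 60.9 CPM, and the LC3 gene Map1lc3b had 144, 138 and 126 CPM. Of 12 ubiquitin and adaptor genes that act at vacuoles, 3 were at least 2-fold higher at both times, against 3.46% and 5.26% of all genes. They were Lgals9, a galectin that binds damaged vacuoles (23.5, 317 and 481 CPM), Rnf213, a giant ubiquitin ligase (43.5, 143 and 255 CPM), and Trim21 (1.73, 6.06 and 6.88 CPM). Nbr1 and Calcoco1 were more than 2-fold lower at 24 h in pooled CPM, 2 of 12 against 26% of all genes. Their log2 ratios were -1.20 and -1.40, beside the median of -0.46 of all genes. The ubiquitin receptor Sqstm1 had 80.3, 56.6 and 84.1 CPM.

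Of 9 inflammasome genes linked to Irgb10, 8 had enough counts. The DNA sensor Aim2 had 101, 81.7 and 109 CPM and the pore former Gsdmd 47.9, 74.6 and 64.5 CPM. None of the 8 was at least 2-fold higher, against 3.46% and 5.26% of all genes, and 2 at 24 h and 1 at 48 h were at least 2-fold lower, against 26% and 16.6%. Such counts in 8 genes are near the background. The lower genes were Il18, a cytokine that caspases activate (31.5, 1.28 and 0.910 CPM), at both times and the inflammasome sensor Nlrc4 (36.7, 16.3 and 25.3 CPM) at 24 h. Of 12 sensing genes, 7 were at least 2-fold higher at both times, against 3.46% and 5.26% of all genes. The receptor chain Ifngr2 was the 1 gene at least 2-fold lower (76.5, 34.6 and 27.9 CPM), against 26% and 16.6% of all genes. Irf1, which binds ISRE elements, had 23.5, 331 and 310 CPM. Socs1, which feeds back on the receptor, had 1.29 CPM, 79.2 CPM and 38.3 CPM, with a log2 ratio of -1.05 from 24 h to 48 h.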

How the data were processed

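The authors used the 10x Genomics 3' kit (v3), mapped reads to mm10 with Cell Ranger 6.0.1, per the labels and processing notes, and deposited UMI counts per gene and barcode without normalization or normalised units. The annotation release is not given in the sources used here, and gene positions are from GENCODE vM21. Cell Ranger counts a read only where it maps to 1 gene.

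Cells were kept at the minima of 5000 UMIs and 400 genes and the maximum of 15% mitochondrial UMIs from the study's methods. The deposited counts of a library's cells were added up and given as CPM. Ratios have exact conditional binomial intervals, CPM exact Poisson intervals and shares exact Clopper-Pearson intervals, at 95%. With 0 untreated UMIs the ratio is a bound against a floor of 3 counts. A gene entered a comparison with 10 counts or more in the pair of libraries. The ratio and its interval were tested on simulated counts of genes with many UMIs only. Bounds against the floor and ratios on a few untreated UMIs were not covered by that. Shares of cells used cells thinned to 5000 UMIs (seed 11). Doublets were kept and no caller was run. Depth was 47243500 to 71077817 UMIs per library.

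Clusters came from Seurat 5.3.0 (CCA integration), with the members and their relatives left out. A cluster was named from the marker list with most genes at a log2 fold of at least 0.5. TMM factors came from edgeR 4.0.16, run under R 4.3.3, and the rest from Python 3.11.15. Alternatives were other UMI and mitochondrial limits, a depth window, the deepest cells left out, means over cells, TMM, other thinning, other clusterings and members left out.

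The members and lists were chosen with earlier results of these data known. Genes were named as the members, the genes of the lists and the 10 genes most like the summed members over cells, with markers and leading genes of clusters, and Isg15, Ifit1, Ifit3 and Cd74 named after their values were seen. Protein sequences were not used here. The values of 1 gene of the sensing list, which is counted in it, are not reported here.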

Additional observations from a re-analysis of the deposited data

How the results depend on the processing

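Each condition is 1 library, so differences between cultures, handling or capture cannot be told apart from those of treatment, and the 48 h library is the shallowest. No paired analysis was possible because each group holds a single library and no test was made. The summed ratio at 24 h was 8.50 with TMM. At 48 h it was 8.25 with TMM and 7.76 in cells of 10000 to 40000 UMIs. The ratio of 48 h to 24 h changed sign, with -0.059 at a minimum of 2000 UMIs, -0.024 at 10000 UMIs, -0.40 in the depth window, -0.047 as a mean over cells and -0.25 with TMM, and it was 0.00016 without the 5% deepest cells. The Irgm share at 24 h was 23.6% in the depth window, 27.2% without the deepest cells, 25.7% as a mean over cells, 28.7% without the Tgtp genes and 30.7% without Gm4951 and F830016B08Rik. At 48 h it was 28.3% with a minimum of 2000 UMIs, 28.7% with 10000, 28.5% in the window, 28.3% at the 10% mitochondrial limit, 26.6% as a mean over cells, 28.5% without the Tgtp genes and 32.1% without Gm4951 and F830016B08Rik. Without thinning, 90.3% and 68.2% of cells had 5 or more members. By cell state, the summed log2 ratio of colonocyte-like to proliferating-like cells (0.11 at 24 h and 0.50 at 48 h) was 0.46 at 48 h with a resolution of 0.3, 0.13 and 0.43 with 30 principal components, and 0.079 and 0.41 with the members kept in. That of goblet-like to proliferating-like cells (0.54 and 0.46) was 0.47 and 0.37 with 30 components. At 48 h the enteroendocrine-like ratio to other cells was 1.43 with 30 components and 1.39 with the members kept in, and that of F830016B08Rik 4.24 and 4.19. Among 126 ratios of single members to the untreated library none changed sign. Of 84 for members with untreated UMIs, 12 left the counting interval, and of 42 that are bounds, 7 moved by 0.5 or more on the log2 scale. The 12 include Iigp1 in the depth window, with 12.1 at 24 h and 11.6 at 48 h. Iigp1 had no untreated UMI there, so these values are lower bounds and do not conflict with its interval. Among 27 ratios of members at 48 h to 24 h, 9 changed sign, in Irgm2, Igtp, Ifi47, Gm4951 and F830016B08Rik. The cause was not tested.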
